A study of Homo sapiens with 18 samples.

Results

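The genes described here are 39 genes of homologous recombination and the Fanconi anemia pathway, taken by their symbols from the 23368 gene rows that were counted. All 39 symbols were found, and all passed the filter on low values in every comparison. The RNA came from SJSA-1, an established human osteosarcoma cell line, in 6 groups of 3 libraries each. Control cells received DMSO, the solvent. The Nutlin group received Nutlin, an MDM2 antagonist that stabilises p53, at 20 µM for 6 h. PD0332991 (Palbociclib), an inhibitor of the kinases CDK4 and CDK6, was given at 10 µM for 30 h (PD30) or for the first 24 h of the same 30 h schedule and then removed (PD24). The groups N+PD30 and N+PD24 combined either schedule with 20 µM Nutlin in the last 6 h, so PD0332991 was present during Nutlin in N+PD30 and had been withdrawn in N+PD24. All groups share 1 cell line and no second line was measured, and the study calls the libraries of a group biological replicates without saying, nor do the labels, whether they came from separate cultures, so the p-values measure the spread between these libraries.

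Homologous recombination repairs double-strand breaks with the sister chromatid as a template, and so works mainly in the S and G2 phases of the cell cycle. Broken ends are cut back to single strands, a recombinase is loaded on them by the BRCA proteins, strands are exchanged, and the joint molecules are then resolved by helicases and nucleases. The Fanconi anemia pathway detects crosslinks between strands through a core complex, which attaches ubiquitin to the FANCD2 and FANCI proteins and hands the damage on to nucleases and to recombination, while the kinases ATM, ATR, CHEK1 and CHEK2 signal that damage is present.

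Levels are given as CPM, each library's counts on a gene scaled by its own total on genes. The total was lowest in N+PD30 replicate 1 (12704845 counts), highest in PD24 replicate 3 (40231041) and 29608936 at the median, so that 3 counts correspond to 0.0746 to 0.236 CPM. Outside DMC1, each of the genes had at least 8 counts in every library. Among osteoblast lineage markers, COL1A1 (1728 CPM ± 588 in DMSO, SD, n = 3), COL1A2, ALPL, RUNX2 and SPP1 were expressed, whereas SP7, BGLAP and IBSP stood at or near 0. Nutlin raised CDKN1A, a p53 target, from 184 CPM ± 38.0 to 3984 CPM ± 146 (SD, n = 3 each), and all 10 listed p53 targets rose in Nutlin against DMSO. A gene is said to have risen or fallen where its adjusted p was under 0.05 across all genes tested, by edgeR's quasi-likelihood test for groups deposited as counts and by limma for comparisons with N+PD24. Fold changes are log2 values, given with their standard error (SE).

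In untreated cells the 39 genes spanned a wide range of levels per kilobase of transcript. UBE2T, the enzyme that delivers ubiquitin to FANCD2 and FANCI, was the highest with 95.7 CPM per kilobase ± 5.36 (SD, n = 3). NBN followed with 38.6 ± 3.05, FANCI with 33.9 ± 2.92 and RAD51AP1 with 31.9 ± 5.02 CPM per kilobase, and FANCI and RAD51AP1 differed by less than the spread between libraries. DMC1, the recombinase of meiosis, was the lowest with 0.325 CPM per kilobase ± 0.0927, below FANCM with 2.41 ± 0.382.

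**Figure D1:**
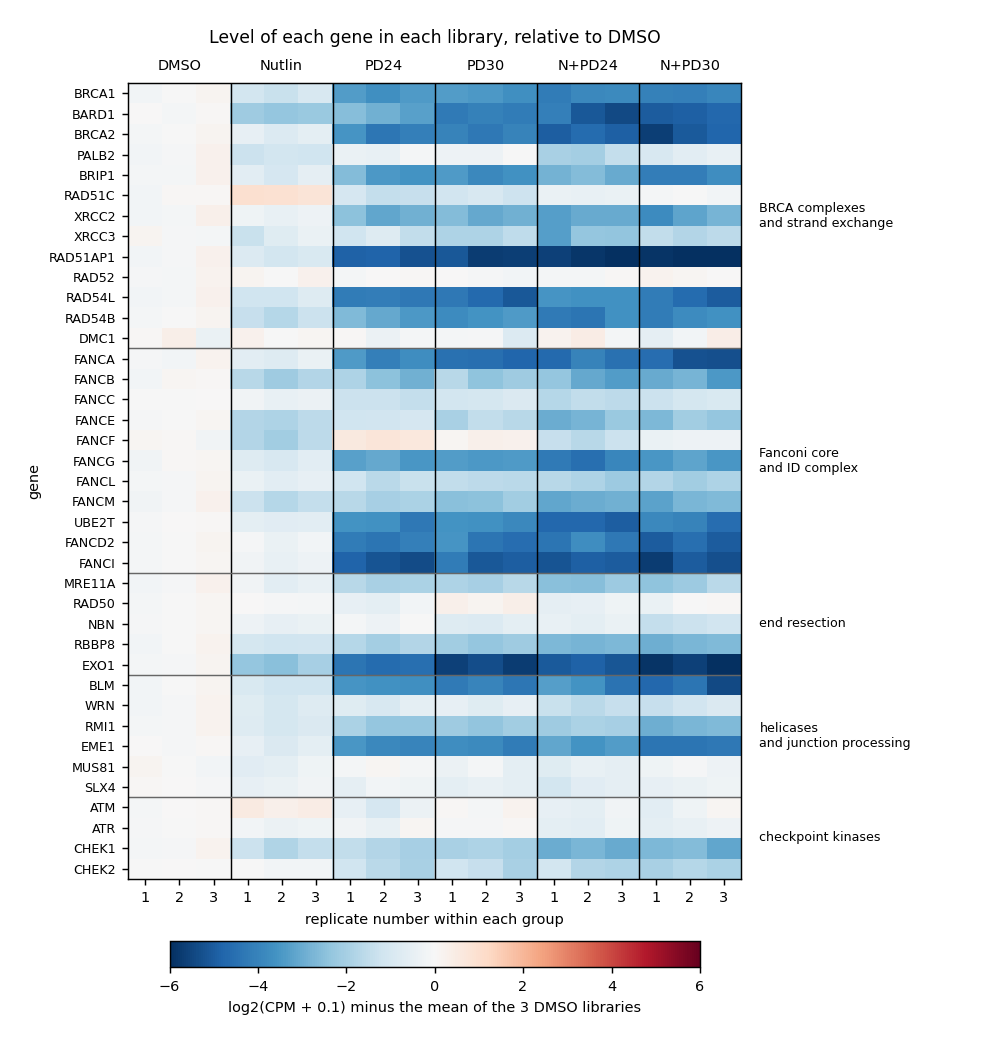
Colour shows log2(CPM + 0.1) of each of the 39 genes (rows, by role) in each of the 18 libraries (columns), minus the mean of the 3 DMSO libraries; blue is lower than DMSO and red is higher. The 4 groups that received PD0332991 are blue for most genes, deepest for RAD51AP1, FANCI and EXO1, while RAD52 and DMC1 stay near the DMSO level in all groups and RAD51C is red in the 3 Nutlin libraries.

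The comparison of PD30 with DMSO asks what 30 h of CDK4/6 inhibition did to these transcripts. Of the 39 genes, 32 fell and 1 rose, and 28 of those that fell did so more than 2-fold. Among all 15125 genes tested, 25.4% fell, 22.9% rose, 9.48% fell more than 2-fold and 5.76% rose more than 2-fold. The median log2 fold change of the 39 genes was -2.08, beside 0.00 over all genes. The mean levels in PD30 lay between 1.94% and 121% of those in DMSO, and 15 of the 39 genes were below 10%. In these bulk libraries, fewer cells that express a gene and less RNA per cell cannot be told apart. Listed markers of replication and of mitosis moved with this result. All 15 replication markers and all 12 mitosis markers fell more than 2-fold in PD30, the replication markers from a summed 3020 to 3310 CPM in DMSO to 201 to 220 CPM, and the mitosis markers from 3505 to 3826 CPM to 58.7 to 87.8 CPM. The part of these changes in the fall of the repair genes was not tested.

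Among the 13 genes of the BRCA complexes and of strand exchange, 10 fell in PD30, all of them more than 2-fold, and none rose, with a median of -3.53. BRCA1, which forms a ubiquitin ligase with BARD1 and promotes recombinase loading, had 86.4, 95.6 and 110 CPM in DMSO and 9.26, 8.81 and 7.50 CPM in PD30. The groups were far apart, and BRCA1 fell by 3.53 on the log2 scale (SE 0.13, adjusted p = 3.2e-08). BRCA2, which loads the recombinase on single strands, had 41.1, 43.0 and 49.3 CPM in DMSO against 2.65, 2.17 and 2.64 CPM in PD30. No PD30 library came near a DMSO library, and the log2 fold change was -4.18 (SE 0.13, adjusted p = 1.42e-08). RAD51AP1, a partner of the recombinase that stimulates strand pairing, went from 59.7, 62.8 and 79.4 CPM to 1.89, 1.20 and 1.25 CPM. This left 2.15% of its mean DMSO level, the lowest share in this role, and a log2 fold change of -5.57 (SE 0.19, adjusted p = 2.34e-08). RAD54L, a motor protein that drives strand exchange, had 24.0, 24.7 and 31.4 CPM in DMSO and 1.24, 0.945 and 0.681 CPM in PD30 and fell by 4.83 on the log2 scale (SE 0.21, adjusted p = 1.2e-07). Its groups did not overlap, but its exons overlap those of LRRC41 on the other strand, and reads of the 2 genes may not be separable. The remaining genes that fell were BARD1 (-4.28), BRIP1 (-3.67), a helicase bound to BRCA1, RAD54B (-3.66), XRCC2 (-2.92), XRCC3 (-1.77) and RAD51C (-1.14), the last 3 being paralogs of the recombinase. PALB2, the bridge between BRCA1 and BRCA2, did not pass the test at -0.23, and neither did RAD52 at -0.08, an annealing protein whose mean was 12.2 CPM ± 1.51 in DMSO and 11.6 CPM ± 0.68 in PD30 (SD, n = 3 each), nor DMC1 at -0.40, whose group means ran from 0.564 to 0.846 CPM.

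Of the 11 genes of the Fanconi core complex and its substrates, 10 fell in PD30, again all more than 2-fold, with a median of -2.40. FANCI, which is ubiquitinated together with FANCD2, went from 148, 158 and 175 CPM to 8.51, 4.56 and 5.03 CPM. This was the deepest fall of the role, -4.76 (SE 0.21, adjusted p = 1.35e-07), with PD30 replicate 1 the highest of the 3 treated libraries. FANCA, a core subunit, had 41.7, 39.1 and 50.0 CPM in DMSO and 1.86, 1.81 and 1.5 CPM in PD30, a change of -4.68 (SE 0.15, adjusted p = 1.5e-08), and its exons overlap ZNF276 on the other strand, as those of FANCI overlap POLG. Exons of XRCC3, FANCB, FANCL and CHEK2 likewise overlap KLC1, GLRA2, VRK2 and HSCB on the other strand, and those of RAD54B and RBBP8 overlap FSBP and MIR4741 on the same strand, so their values are uncertain to that extent. FANCD2 fell from 63.2, 66.3 and 75.1 CPM to 5.72, 3.20 and 2.78 CPM (-4.16, SE 0.23, adjusted p = 7.16e-07). UBE2T had 79.2, 84.1 and 88.6 CPM in DMSO and 6.82, 6.73 and 5.56 CPM in PD30, with no overlap (-3.74, SE 0.11, adjusted p = 1.13e-08). The core subunits FANCG (-3.47), FANCM (-2.40), FANCB (-2.08), FANCE (-1.72), FANCL (-1.58, the ubiquitin ligase subunit) and FANCC (-1.02) also fell. FANCF, the adaptor of the core complex, was the exception with 14.4, 13.7 and 11.4 CPM in DMSO and 14.4, 16 and 15.7 CPM in PD30. Its groups touched at 14.4 CPM and it did not pass the test (0.21, SE 0.14).

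End resection held both the deepest fall and the only rise of the 39 genes in PD30. EXO1, an exonuclease that extends resected ends, had 44.1, 46.6 and 54.9 CPM in DMSO and 0.895, 1.11 and 0.823 CPM in PD30, which is 1.94% of its mean DMSO level. Every PD30 library was far below every DMSO library, and the log2 fold change was -5.69 (SE 0.16, adjusted p = 7.28e-09). RAD50, a subunit of the nuclease complex that first binds broken ends, had 88.9, 93.9 and 104 CPM in DMSO and 119.1, 105.6 and 122.9 CPM in PD30. The PD30 libraries lay above the DMSO libraries by a narrow margin, and RAD50 rose by 0.26 (SE 0.09, adjusted p = 0.0325). The call was lost when DMSO replicate 1 or 2 or PD30 replicate 1 or 3 was left out and in a fit over all 5 groups deposited as counts. Its partners in the complex fell, MRE11A by 1.87 and NBN by 0.75 on the log2 scale, as did RBBP8, which starts resection (-2.20). Exons of NBN overlap OSGIN2 on the other strand. All 6 genes of helicases and junction processing fell. BLM, the helicase that dissolves joint molecules, went from 31.7, 34.4 and 39.9 CPM to 1.76, 2.14 and 1.65 CPM, with no overlap and a change of -4.26 (SE 0.15, adjusted p = 3.22e-08). Its partner RMI1 changed by -2.23 and EME1, the partner of the nuclease MUS81, by -4.01. The falls of WRN, a helicase with an exonuclease (-0.60), of SLX4, a scaffold of nucleases (-0.54), and of MUS81 (-0.37) were much smaller, and that of MUS81 was lost in the same 5 fits as the rise of RAD50. The exons of MUS81 overlap CFL1 and EFEMP2, and those of EME1 overlap LRRC59.

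Of the 4 checkpoint kinases 2 fell and none rose. CHEK1, the kinase activated by ATR, had 32.0, 33.3 and 39.8 CPM in DMSO and 9.02, 9.54 and 8.32 CPM in PD30, with no overlap and a change of -1.98 (SE 0.12, adjusted p = 1.35e-06), and it shares exon sequence on the same strand with STT3A. CHEK2, the kinase activated by ATM, also fell (-1.5, SE 0.18, adjusted p = 0.000127). ATM had 70.2, 77.4 and 77.5 CPM in DMSO and 78.5, 68.7 and 87.5 CPM in PD30, groups that overlapped, and was not called (0.04, SE 0.11), nor was ATR (-0.03).

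**Figure D2:**
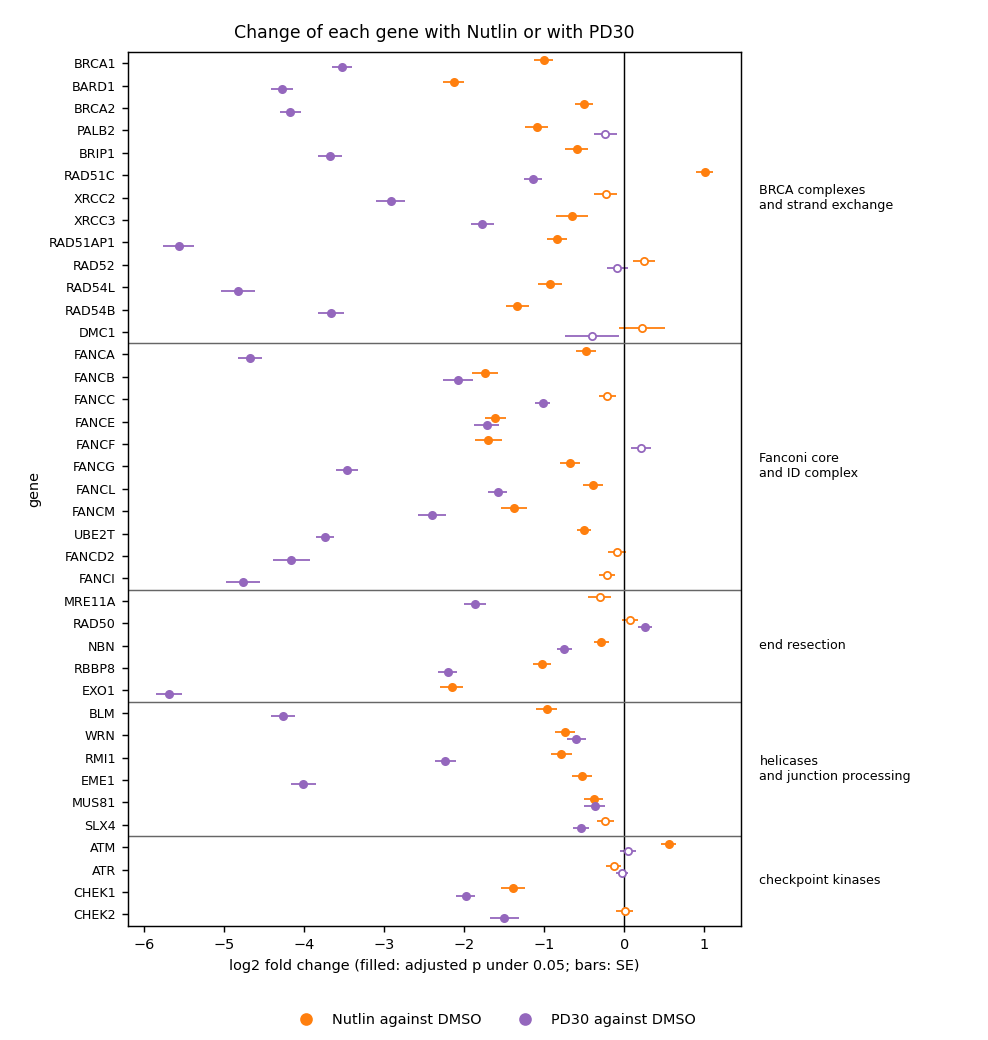
Points are log2 fold changes of the 39 genes (rows, by role) for Nutlin against DMSO (orange) and PD30 against DMSO (purple), bars are SE and filled points have an adjusted p under 0.05; both comparisons use the same DMSO libraries. Most purple points lie left of -1, down to -5.69 for EXO1, while the orange points lie between -2.16 and 1.01, with RAD51C and ATM on the right.

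Because so many of these genes fell together, their promoters were searched for the letters of sites bound by E2F factors and by the DREAM and MuvB complexes, which are known to control many cell cycle genes. RefSeq promoters on GRCh38.p14, from 250 bases before to 50 bases after the annotated start, were on hand for 35 of the 39 genes. The first search, for the E2F words TTTCCCGC, with its variants TTTCGCGC, then TTTGCCGC and lastly TTTGGCGC, on both strands, matched 6 of the 35 (17.1%) and 3.33% of all 27305 promoters. A shorter core added after that result was seen (each word without its leading T, so TTCCCGC in place of the first, and so contained in the longer words) matched 18 of 35 (51.4%), beside 13.1% of all promoters. Counting only matches upstream of the start, the core was found in 9 of 35 (25.7%), beside 11.02% of all promoters, and the longer words in 2 of 35 (5.71%), beside 2.79%. Among promoters of tested genes outside the 39, 16.8% held the core upstream, and 23.0% of those of genes that fell more than 2-fold in PD30. For the longer words these upstream shares were 4.15% and 7.14%. The cell cycle homology region (CHR), read as TTTGAA or, with a CpG, as TTCGAA, matched 4 of 35 (11.4%), beside 16.6% of all promoters and 11.5% of 10312 promoters of tested genes outside the 39, and 21.5% of those of the genes that fell more than 2-fold in PD30. Of the tested genes whose symbols matched the table, the core was found in 29.1% of 981 promoters of other genes that fell more than 2-fold in PD30 and in 18.8% of the 9331 remaining promoters. The longer words were found in 9.68% and 4.52% of these promoters. The promoters of RAD52, DMC1 and FANCF, genes that did not fall in PD30, also held the core. A match is a match of letters and not a measured site, and no match says only that these letters are not in the window.

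The stretches shown are those of the genes with the deepest falls in PD30 among the genes with a match wholly upstream of the start, then 2 deeply fallen genes with neither match in the window. Each runs 5′ to 3′ along the gene's own strand, and capitals mark the matched E2F core (in UBE2T and BRIP1 the CHR, in FANCA the longer word).
RAD51AP1, chr12:4538830-4538889, + strand: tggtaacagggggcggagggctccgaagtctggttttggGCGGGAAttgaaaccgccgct
RAD54L, chr1:46247612-46247671, + strand: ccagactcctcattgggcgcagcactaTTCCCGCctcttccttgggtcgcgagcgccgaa
FANCA, chr16:89816787-89816846, - strand: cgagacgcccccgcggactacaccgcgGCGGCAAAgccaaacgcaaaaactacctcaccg
BLM, chr15:90717245-90717304, + strand: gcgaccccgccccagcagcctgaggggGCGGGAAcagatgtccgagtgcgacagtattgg
EME1, chr17:50373122-50373181, + strand: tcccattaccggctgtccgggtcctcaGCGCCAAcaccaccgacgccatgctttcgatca
UBE2T, chr1:202342057-202342116, - strand: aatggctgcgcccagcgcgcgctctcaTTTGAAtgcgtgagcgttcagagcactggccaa
BRIP1, chr17:61863719-61863778, - strand: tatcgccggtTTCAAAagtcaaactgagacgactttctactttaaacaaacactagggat
FANCG, chr9:35079994-35080053, - strand: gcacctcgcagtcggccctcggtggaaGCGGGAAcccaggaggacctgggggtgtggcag
BRCA2, chr13:32315448-32315507, + strand: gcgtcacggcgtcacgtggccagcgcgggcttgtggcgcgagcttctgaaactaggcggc
BRCA1, chr17:43170328-43170387, - strand: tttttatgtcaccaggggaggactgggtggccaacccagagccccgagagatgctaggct
The table holds 1 start per gene. For BRCA1 that is the outermost start, and in GENCODE on GRCh37 (chr17:41196312-41322262, - strand) the main BRCA1 transcript begins 44881 bases inside the outermost one, so the promoter of the main transcript was not searched. The main transcripts of RAD52, FANCC and RBBP8 likewise begin 40359, 109087 and 135067 bases inside their outermost starts. Which start was searched for these genes was not determined, so the stretch may not be the promoter of their main transcript.

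The PD24 group had the drug withdrawn for the last 6 h. Against DMSO, 31 of the 39 genes fell, 28 of them more than 2-fold, and 1 rose, with a median of -1.83. Among the 15094 genes tested, 20.8% fell, 7.96% fell more than 2-fold, 17.5% rose and 4.61% rose more than 2-fold. FANCI had 5.70, 4.26 and 3.83 CPM in PD24, far below its DMSO libraries, and showed the deepest fall, -5.11 (SE 0.17, adjusted p = 4.91e-08). RAD51AP1 (-5.01), EXO1 (-4.56), RAD54L (-4.30), FANCD2 (-4.24) and BRCA2 (-3.97) followed. FANCF, with 19.6, 21.7 and 20.2 CPM, lay above all 3 DMSO libraries and rose by 0.66 (SE 0.14, adjusted p = 0.0051). Its exons overlap GAS2 on the other strand. RAD50 (-0.37) and ATM (-0.57) fell. The call of ATM was lost without DMSO replicate 2, and that of RAD50 without DMSO replicate 2 or 3 or PD24 replicate 1 or 2. PALB2, NBN, MUS81, SLX4, ATR, RAD52 and DMC1 did not pass the test.

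PD24 was then compared directly with PD30, which asks which transcripts differed 6 h after withdrawal. Of the 39 genes, 7 were higher and 2 lower in PD24, with a median of 0.21, while 12.9% of the 15171 genes tested were higher and 12.2% lower. More than 2-fold, 2 of the 39 were higher and 0 lower, beside 4.07% and 3.42% of all genes. BARD1, with 3.80, 3.04 and 2.31 CPM in PD24 and 1.10, 1.31 and 1.16 CPM in PD30, showed the largest rise, 1.38 (SE 0.24, adjusted p = 0.00415), and its groups did not overlap. EXO1 had 2.21, 1.85 and 1.99 CPM in PD24, again above all its PD30 libraries, and rose by 1.12 (SE 0.23, adjusted p = 0.00733). Even so, BARD1 and EXO1 in PD24 stood at 13.3% and 4.15% of their mean DMSO levels. The other genes that were higher were FANCA (0.93), NBN (0.63), BLM (0.62), FANCE (0.61) and FANCF (0.45). The call of BLM was lost in each of the 6 fits that left out 1 library, that of FANCE in all of these but the one without PD30 replicate 2, that of FANCF without PD24 replicate 2 or any PD30 library, and that of FANCA without PD24 replicate 1 or PD30 replicate 3. RAD50 had 68.5, 64.2 and 85.4 CPM in PD24, below its PD30 libraries, and was the larger of the 2 falls at -0.64 (SE 0.12, adjusted p = 0.00527), and ATM with 54.0, 37.3 and 58.8 CPM changed by -0.61 (SE 0.16, adjusted p = 0.0217). PD24 replicate 2 was the lowest library for both. Same-numbered libraries deviated together here, and with the replicate number as a block 12 of the genes were higher and 2 lower, BRIP1, XRCC3, FANCM, RBBP8 and MUS81 being added. Leaving out PD24 replicate 1, PD30 replicate 1 or PD30 replicate 3 left 4 that were higher, and without PD30 replicate 1 or 3 the call of ATM was lost, leaving 1 that was lower. Of 15 replication markers, 9 were also higher in PD24 than in PD30 and none lower, with a summed level of 284 to 407 CPM in PD24. Their part was not tested.

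**Figure D3:**
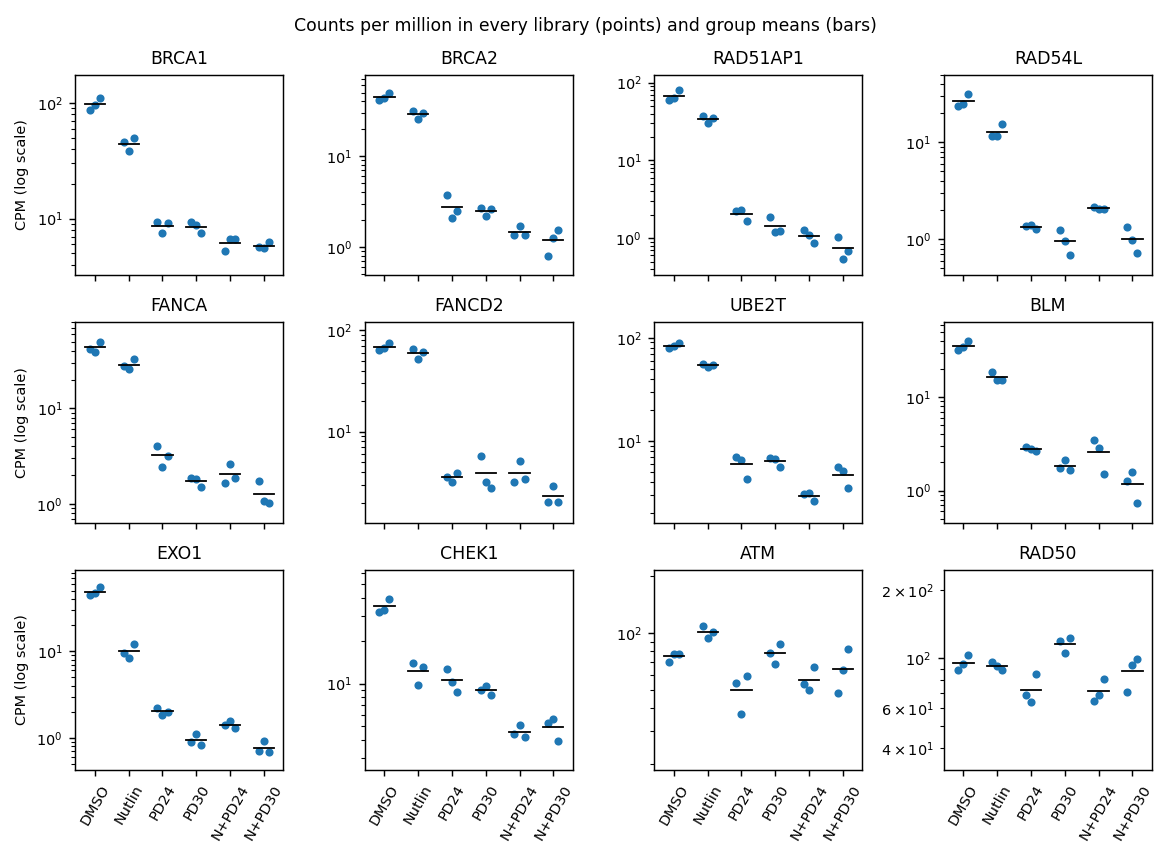
Points are CPM (log axis, whose range differs between panels) of 12 genes in each of the 3 libraries per group, and bars are group means. BRCA1, BRCA2, RAD51AP1, RAD54L, FANCA, FANCD2, UBE2T, BLM and EXO1 are far lower in the 4 groups with PD0332991 than in DMSO. With Nutlin alone, CHEK1 and all of these genes but FANCD2 are lower than in DMSO as well, EXO1 the most. ATM is highest in Nutlin, and RAD50 is highest in PD30.

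Nutlin alone also changed most of these genes. Against DMSO, 26 of the 39 genes fell and 2 rose, 11 and 1 of them more than 2-fold, with a median of -0.53. Among the 15766 genes tested, 28.0% fell, 26.6% rose, 8.42% fell more than 2-fold and 12.4% rose more than 2-fold. Scaling by total counts moved the median of all genes from 0.03 to -0.10, changed the split of all calls from 4416 lower and 4198 higher to 5439 and 3151, and gave 31 lower and 2 higher among the 39. EXO1, with 9.67, 8.33 and 12 CPM in Nutlin, was far below its DMSO libraries and fell most, by 2.16 on the log2 scale (SE 0.14, adjusted p = 3.54e-06). BARD1 followed with 5.11, 4.53 and 4.75 CPM, against 23.6, 21.1 and 24.3 CPM in DMSO (-2.13, SE 0.13, adjusted p = 2.26e-06). BRCA1 had 45.8, 38.5 and 49.6 CPM, which is 45.8% of its mean DMSO level, and changed by -1.0 (SE 0.12, adjusted p = 8.05e-05). PALB2, with 8.72, 10.1 and 9.29 CPM, lay below all DMSO libraries and changed by -1.09 (SE 0.15, adjusted p = 0.000175), and RAD54B (-1.33) and RBBP8 (-1.03) fell more than 2-fold as well. In the Fanconi core, FANCB (-1.74), FANCF (-1.70), FANCE (-1.61) and FANCM (-1.38) fell more than 2-fold, with FANCF at 3.87, 3 and 4.35 CPM. The ubiquitinated pair did not pass the test, since FANCD2 had 64.7, 51.6 and 60.4 CPM, overlapping DMSO (-0.09, SE 0.12), and FANCI changed by -0.21. CHEK1 had 14, 9.76 and 13 CPM, all below DMSO, and fell by 1.39 on the log2 scale (SE 0.15, adjusted p = 4.72e-05).

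Several of the genes with the deepest falls in PD30 fell by less than 2-fold in Nutlin. BRCA2 had 31.3, 25.3 and 29.6 CPM (-0.50), FANCA 27.6, 25.6 and 32.9 CPM (-0.48), and UBE2T 56.1, 52.2 and 54.2 CPM (-0.51). RAD51AP1 had 37.2, 30.6 and 35.5 CPM (-0.84), RAD54L 11.6, 11.6 and 15.6 CPM (-0.92), and BLM 18.8, 15.4 and 15.3 CPM (-0.97). In each of these 6 genes all Nutlin libraries were below all DMSO libraries, and the adjusted p ranged from 0.000206 for BLM to 0.00799 for FANCA. The 2 rises were in RAD51C and ATM. RAD51C had 42.4, 49.8 and 50.0 CPM in DMSO and 91.6, 88.4 and 81.6 CPM in Nutlin, well apart, and rose by 1.01 (SE 0.11, adjusted p = 4.15e-05). ATM had 109, 93.8 and 101 CPM in Nutlin, above all DMSO libraries, and rose by 0.56 (SE 0.09, adjusted p = 0.000717). Exons of ATM overlap C11orf65 on the other strand. RAD50 had 95.9, 92.0 and 88.2 CPM and was not called (0.07). Of the replication markers 11 of 15 fell and 1 rose, and of the mitosis markers 10 of 12 fell, and their part in the result was not tested.

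N+PD30 was compared with Nutlin to ask what CDK4/6 inhibition changed in cells that also received Nutlin. Of the 39 genes 30 fell, 25 of them more than 2-fold, and 2 rose, 1 of them more than 2-fold, with a median of -1.64. Over the 15721 genes tested, 24.7% fell, 13.9% fell more than 2-fold, 24.3% rose and 8.43% rose more than 2-fold. RAD51AP1, at 1.02, 0.538 and 0.678 CPM in N+PD30, fell most (-5.66, SE 0.23, adjusted p = 2.64e-08), its level being 1.11% of that in DMSO. BRCA2 had 0.787, 1.24 and 1.55 CPM (-4.58), FANCA 1.73, 1.07 and 1.02 CPM (-4.59) and FANCD2 2.05, 2.89 and 2.03 CPM (-4.67), all far below their Nutlin libraries. BRCA1 stood at 5.67, 5.58 and 6.25 CPM (-2.97), UBE2T at 5.59, 5.14 and 3.49 CPM (-3.56) and EXO1 at 0.708, 0.907 and 0.678 CPM (-3.71), likewise without overlap. FANCF moved the other way, with 9.84, 10.6 and 10.5 CPM against 3.87, 3 and 4.35 CPM in Nutlin, a rise of 1.43 (SE 0.18, adjusted p = 0.00011) that ended below the DMSO level. PALB2 rose by 0.50 (SE 0.17, adjusted p = 0.0291), a call that was lost, leaving FANCF as the 1 rise, without Nutlin replicate 1 or 3 or N+PD30 replicate 2 or 3. ATM, at 47.9, 63.2 and 81.8 CPM, lay below all Nutlin libraries and fell by 0.70 (SE 0.16, adjusted p = 0.00487). All 15 replication markers and all 12 mitosis markers fell more than 2-fold here, with medians of -3.60 and -5.29, and their part in the result was not tested.

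The same question for the withdrawn drug was put with N+PD24 against Nutlin. Of the 39 genes 32 fell, 27 more than 2-fold, and none rose in limma's test, with a median of -1.48 on the log2(CPM + 0.1) scale. Among 15263 genes tested, 19.4% fell, 7.86% fell more than 2-fold, 15.4% rose and 4.02% rose more than 2-fold. At an unadjusted p under 0.05, 33 fell and 0 rose, and edgeR on the recovered reads called 30 that fell and 0 that rose. RAD51AP1, at 1.27, 1.08 and 0.867 CPM, again fell most (-4.86, SE 0.18, adjusted p = 4.43e-08) and lay far below its Nutlin libraries. BRCA1 had 5.21, 6.63 and 6.72 CPM (-2.80), BRCA2 1.35, 1.71 and 1.37 CPM (-4.17) and FANCD2 3.20, 5.12 and 3.43 CPM (-3.87). FANCF had 5, 4.03 and 5.34 CPM, overlapping Nutlin, and was not called (0.39). With the replicate block, which same-numbered libraries justified here, 33 fell and 1 rose, the latter being FANCF. The 15 replication and 12 mitosis markers again all fell more than 2-fold, with medians of -3.31 and -4.92, and their part was not tested.

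The reverse question, what Nutlin changed in cells given PD0332991, had fewer calls under the continuous drug than after its withdrawal. These comparisons used different tests, but edgeR on recovered reads also called 15 lower and 2 higher in N+PD24 against PD24. Their medians, -0.34 and -0.38, were close, so fewer calls need not mean smaller changes. In N+PD30 against PD30, 7 of the 39 genes fell and 1 rose, with a median of -0.34, while 5.64% of the 15077 genes tested fell, 8.84% rose and 3.18% rose more than 2-fold. Scaling by total counts turned the split of all calls from 850 lower and 1333 higher to 1421 and 1107, and gave 10 lower and 1 higher among the 39. RAD51C, at 43.8, 46.3 and 42.1 CPM in N+PD30 and 21.0, 24.0 and 20.0 CPM in PD30, was the rise (1.12, SE 0.12, adjusted p = 0.000948), and its groups did not overlap. FANCB, with 2.36, 2.79 and 1.74 CPM against 6.34, 3.73 and 4.43 CPM, showed the largest fall (-0.96, SE 0.26, adjusted p = 0.0434). BRCA2 (-0.92), CHEK1 (-0.76, at 5.27, 5.61 and 3.92 CPM), RBBP8 (-0.50), FANCF (-0.48), NBN (-0.46) and ATR (-0.34) also fell. These falls were less secure than those with PD30. None of them passed without PD30 replicate 1, 2 or 3 or without N+PD30 replicate 2, and 2 passed without N+PD30 replicate 1, the shallowest library. With the replicate block 13 fell and 1 rose, BRCA1, PALB2, RAD51AP1, FANCE, WRN and RMI1 being added to the falls. The same check of replicate numbers was passed here, but N+PD30 replicate 1 deviated most like PD30 replicate 2, so the pairing is less sure.

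In N+PD24 against PD24, 16 of the 39 genes fell, 7 more than 2-fold, and 2 rose, with a median of -0.38, beside 22.4%, 7.81% and 14.3% of the 14910 genes tested. None of the 39 rose more than 2-fold, beside 7.37% of all genes. Scaling by total counts changed the split of all calls from 3334 lower and 2139 higher to 4065 and 1613. FANCF, at 5, 4.03 and 5.34 CPM against 19.6, 21.7 and 20.2 CPM, fell most (-1.98, SE 0.16, adjusted p = 1.61e-05), and its groups were far apart. BARD1 (-1.89), FANCE (-1.44), XRCC3 (-1.40), PALB2 (-1.38), CHEK1 (-1.08, at 4.38, 5.06 and 4.19 CPM) and FANCM (-1.05) also fell more than 2-fold. RAD51C rose by 0.94 (SE 0.15, adjusted p = 0.000624), with 36.0, 34.9 and 35.3 CPM against 23.6, 17.8 and 18.3 CPM. RAD54L, at 2.17, 2.03 and 2.06 CPM against 1.36, 1.39 and 1.27 CPM, rose by 0.70 (SE 0.21, adjusted p = 0.0222), a call lost without PD24 replicate 1 or 3 or any single N+PD24 library. The number that rose was 1 without PD24 replicate 3 or any N+PD24 library, and without N+PD24 replicate 2, 9 of the 39 genes fell. With the replicate block 18 fell and 4 rose, BRIP1 and ATM being added to the rises.

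Last, N+PD24 was set against N+PD30, the direct comparison of the schedules in the presence of Nutlin. Of the 39 genes 8 were higher in N+PD24, 4 of them more than 2-fold, and 4 were lower, 2 of them more than 2-fold, with a median of 0.07. With a pseudocount of 0.5 or 1 CPM in place of 0.1, 1 was higher and 0 lower by more than 2-fold, while the counts called, 8 and 4, were equal. Among 14982 genes tested, 15.3% were higher, 7.08% by more than 2-fold, and 16.7% lower, 5.46% by more than 2-fold. Scaling by total counts changed the split of all calls from 2506 lower and 2295 higher to 3081 and 1806, and gave 6 higher and 5 lower among the 39. BRIP1, with 11.7, 13.6 and 10.4 CPM in N+PD24 and 4.64, 4.70 and 6.34 CPM in N+PD30, showed the largest rise (1.28, SE 0.19, adjusted p = 0.00103), and its groups did not overlap. BLM (1.15), EME1 (1.11), RAD54L (1.10), NBN (0.92), EXO1 (0.91), RMI1 (0.87) and FANCD2 (0.81) were higher as well. BLM had 3.44, 2.84 and 1.52 CPM against 1.26, 1.58 and 0.726 CPM, groups that overlapped, and its call was lost without N+PD24 replicate 1 or 2 or N+PD30 replicate 1 or 3. That of EXO1 was lost without N+PD24 replicate 1 or 2 or N+PD30 replicate 3, that of FANCD2 without N+PD24 replicate 2 or N+PD30 replicate 1 or 3, and that of FANCG without N+PD24 replicate 1 or 2 or N+PD30 replicate 2. PALB2, at 5.62, 5.25 and 8.02 CPM against 10.9, 13.9 and 16 CPM, was the largest fall (-1.01, SE 0.20, adjusted p = 0.00455), followed by FANCF (-1.0), XRCC3 (-0.96) and FANCG (-0.76). Without N+PD24 replicate 2 or N+PD30 replicate 3, 5 genes were higher.

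**Figure D4:**
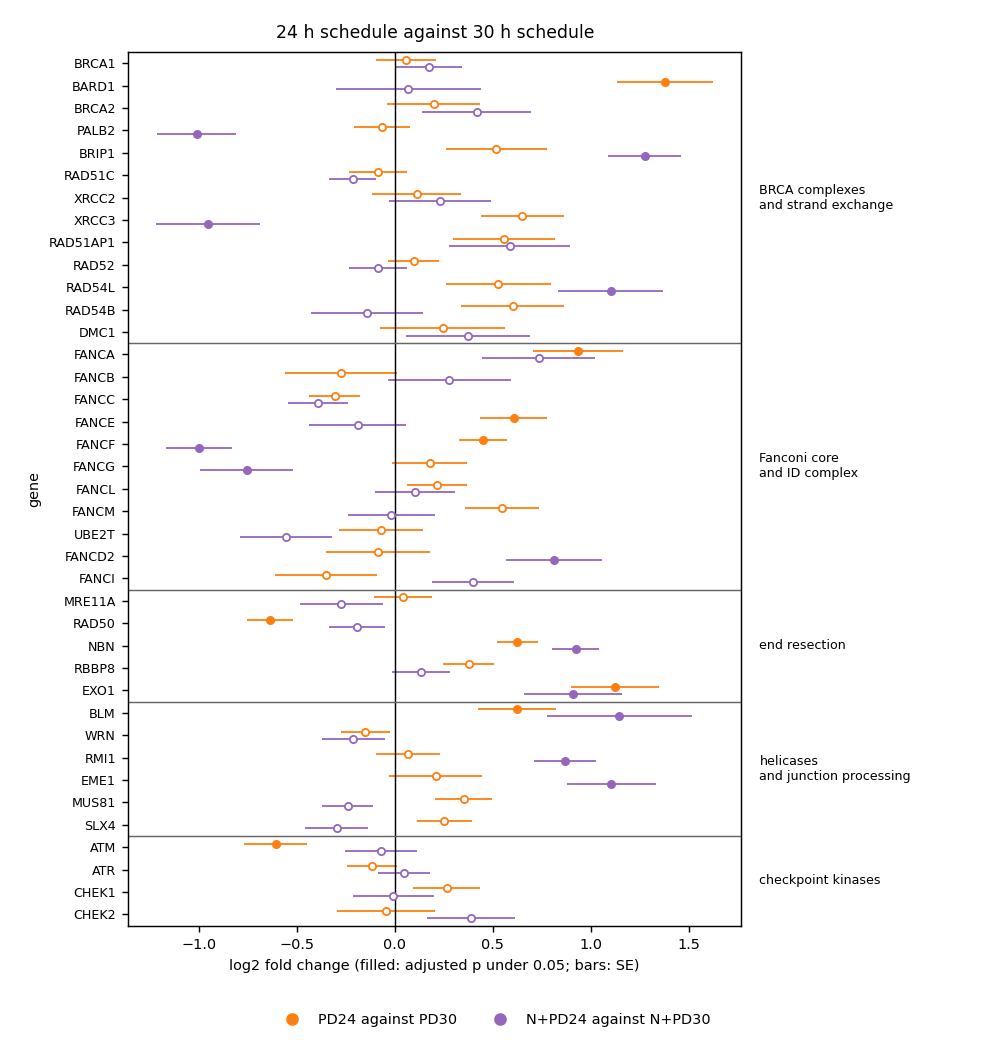
Points are log2 fold changes of the 39 genes (rows, by role) for PD24 against PD30 (orange) and N+PD24 against N+PD30 (purple), bars are SE and filled points have an adjusted p under 0.05. EXO1, NBN and BLM are filled and right of 0 in both, BARD1 (1.38) is the farthest right of the orange points and BRIP1 (1.28) of the purple ones, and FANCF is filled on opposite sides.

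Whether the change with Nutlin differed between cells given and not given PD0332991 was tested by an interaction term over 12 libraries. A positive term means that the change with Nutlin was less negative, or more positive, in cells given PD0332991. The drug was present during Nutlin for the PD30 terms and had been withdrawn for the PD24 terms. For PD30, 14 of the 39 genes had a positive and 1 a negative term, beside 12.8% and 7.03% of the 16113 genes tested. Terms beyond 2-fold were positive in 7 and negative in 0 of the 39, beside 5.28% and 4.94%. The largest was that of EXO1, whose log2 fold change with Nutlin was -2.16 in the absence and -0.19 in the presence of PD30 (term 2.02, SE 0.29, adjusted p = 0.000498). BARD1 went from -2.13 to -0.69 (term 1.5), FANCF from -1.70 to -0.48 (term 1.26), RAD54B from -1.33 to -0.18 (term 1.21) and FANCM from -1.38 to -0.42 (term 1.01). BRCA1 went from -1.0 to -0.46 (term 0.60). The term of BRCA1 was lost without DMSO replicate 2 or 3, Nutlin replicate 2, PD30 replicate 3 or N+PD30 replicate 2 or 3, and that of FANCM without N+PD30 replicate 2. ATM had the negative term, -0.70 (SE 0.21, adjusted p = 0.0289), since it changed by 0.56 with Nutlin alone and by -0.19 on top of PD30. In PD30 EXO1 ran from 0.823 to 1.11 CPM and BARD1 from 1.10 to 1.31 CPM, low levels beside those of the DMSO libraries. RAD54L (0.681 to 1.24 CPM), RAD54B (1.31 to 1.73 CPM) and FANCG (2.475 to 2.686 CPM) were likewise low in PD30. FANCF, at 14.4 to 16.02 CPM in PD30, was not. The number of positive terms was 9 without DMSO replicate 2, 8 without Nutlin replicate 2 and 7 without N+PD30 replicate 2, and the term of ATM was lost without DMSO replicate 1 or 2, Nutlin replicate 1, PD30 replicate 1 or 3 or N+PD30 replicate 2. Of the replication markers, 9 of 15 had a positive term and none a negative one.

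For PD24, limma called 3 positive terms and 0 negative ones among the 39 genes, beside 0.581% and 0.389% of the 15670 genes tested, or 0.491% and 0.338% beyond 2-fold. At an unadjusted p under 0.05 there were 9 positive and 0 negative terms. They belonged to EXO1 (1.82, SE 0.22, adjusted p = 0.00151), RAD54L (1.66, SE 0.22, adjusted p = 0.00278) and RMI1 (1.10, SE 0.20, adjusted p = 0.0239). RAD54L changed by -0.92 with Nutlin alone and by 0.70 on top of PD24. With edgeR on the recovered reads there were 3 positive and 0 negative terms, and without PD24 replicate 1 there were 5. The term of RMI1 was lost without DMSO replicate 2 or 3, Nutlin replicate 2 or 3, PD24 replicate 2 or 3 or N+PD24 replicate 2. RAD51C had no called term under either schedule (0.16 for PD30 and -0.02 for PD24).

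**Figure D5:**
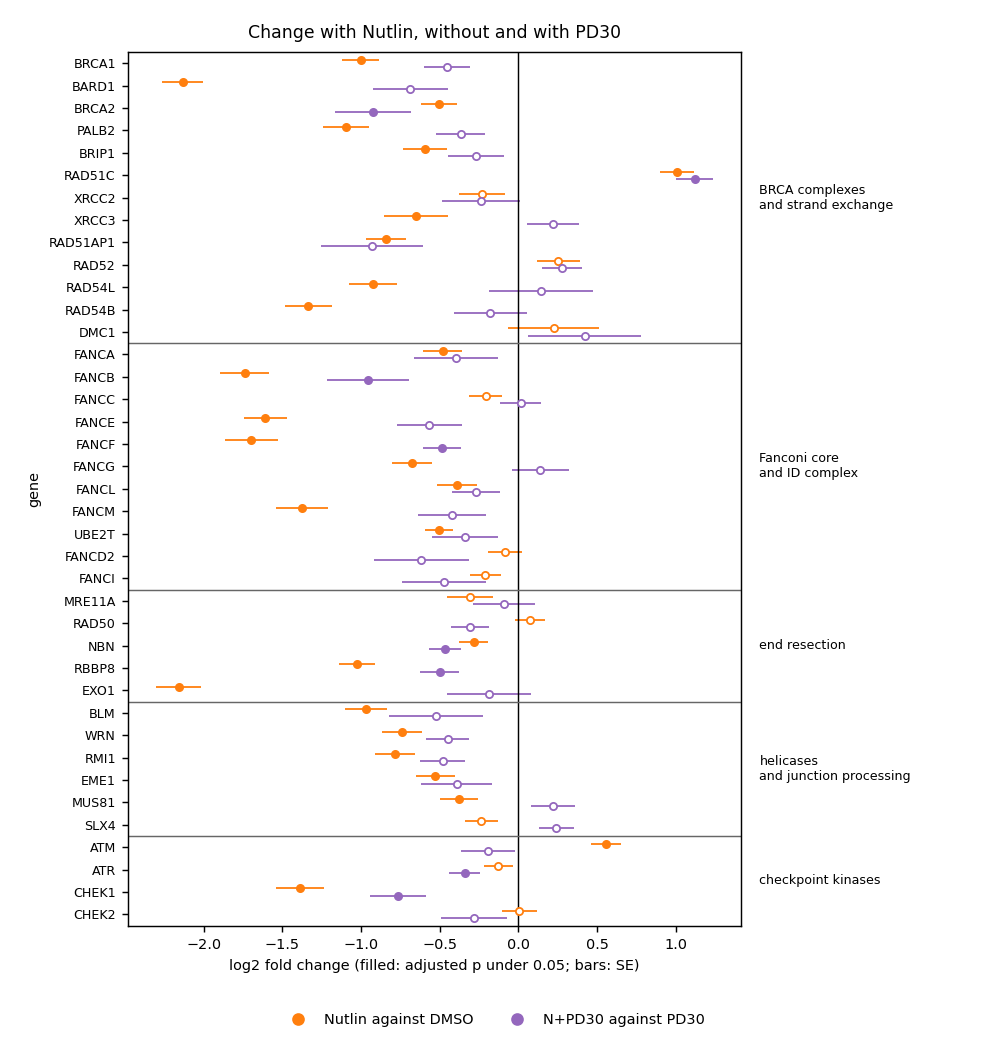
Points are log2 fold changes of the 39 genes (rows, by role) with Nutlin, against DMSO (orange) and on top of PD30 (purple), bars are SE and filled points have an adjusted p under 0.05. The purple points lie nearer to 0 for EXO1, BARD1, FANCF and RAD54B, both points of RAD51C lie near 1, and ATM is right of 0 without PD30 and left of it with PD30.

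The other genes of the pathway were followed through a list of 46 further genes, of which 45 were found and tested, among them replication protein A, cofactors of the kinases and nucleases. In PD30 against DMSO, 30 of the 45 fell, 22 more than 2-fold, and 4 rose, with a median of -0.98. POLQ, the polymerase of a back-up end joining route, had the deepest fall (-6.35, adjusted p = 5.27e-09), and BRE, a scaffold of a BRCA1 complex, the largest rise (0.44, adjusted p = 0.0034). In Nutlin against DMSO, 28 of the 45 fell and 1 rose, CLSPN, the adaptor that brings CHEK1 to ATR, falling most (-1.93, adjusted p = 2.75e-06). In N+PD30 against PD30, 3 fell and 2 rose, and USP1, which removes ubiquitin from FANCD2 and FANCI, fell most (-1.08, adjusted p = 0.0084). In N+PD24 against PD24, 24 fell and none rose, with FIGNL1, a regulator of the recombinase, falling most (-2.07). For comparison, 15 listed genes of end joining, which needs no sister chromatid, were followed as well. Of these, 10 fell in PD30, 4 of them more than 2-fold, and 1 rose, with a median of -0.69, PARP1 falling most (-1.57, adjusted p = 4.42e-07). POLQ, although of an end joining route, was counted among the 45 genes above and not in this list. In Nutlin 3 of the 15 fell and 1 rose, with a median of -0.01. Over all genes tested, 25.4% fell, 9.48% fell more than 2-fold and 22.9% rose in PD30, and 28.0% fell and 26.6% rose in Nutlin. In N+PD30 against PD30 the shares were 5.64% and 8.84%, and in N+PD24 against PD24 they were 22.4% and 14.3%. These lists were not tested against each other or against these shares.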

How the data were processed

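SJSA-1 libraries (single-end reads, TruSeq RNA kit) were mapped by the authors to hg19 with TopHat and Bowtie2 and counted per gene symbol with HTSeq 0.6.0, using the setting for reverse-stranded reads. Whether the kit keeps strand is not given in the sources used here. The authors deposited read counts for 15 libraries. The 3 N+PD24 libraries were deposited as a signal, counts divided by a size factor, and 100% of these values were whole reads (tolerance 0.01) once multiplied back. Deposited tables of base means and the authors' own comparison of Nutlin with DMSO (fold changes, p-values) were not used.

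Counts were compared with edgeR 4.0.16 (R 4.3.3, TMM, filterByExpr, quasi-likelihood test) over the groups compared, without a replicate block. N+PD24 was compared with limma 3.58.1 (trend) on log2(CPM + 0.1) of genes above 0.5 CPM in 3 libraries, a scale that understates changes of low genes. Adjustment was by Benjamini-Hochberg over all genes. The scripts were tested on simulated data. Replicate numbers paired the libraries (all 3 correlations of same-numbered deviations over 0.1, from 0.197 to 0.653) in PD24 against PD30, N+PD30 against PD30, N+PD24 against Nutlin and N+PD24 against PD24, and in no other comparison of 2 groups. For both interactions some of the 6 pairs of groups passed and others did not. Named were all 39 genes, with library values for 12 and for the largest fall and rise of each comparison. Members and lists were chosen with earlier results of these data known. Alternatives were DESeq2 1.42.0, other scalings, filters, pseudocounts, a block, one fit over all groups, edgeR on recovered reads and leaving out each library. One marker is not reported here.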

Additional observations from a re-analysis of the deposited data

Results flagged for a closer look

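These results stand out because the change with Nutlin differed between cells given and not given PD0332991. This was by a test of the difference itself, an interaction term on the log2 scale (adjusted p under 0.05 over all genes, 12 libraries). For PD30 (edgeR) the terms were 2.02 for EXO1, 1.5 for BARD1, 1.26 for FANCF, 1.21 for RAD54B, 1.11 for RAD54L, 1.10 for FANCE and 1.01 for FANCM. They were 0.92 for XRCC3, 0.87 for FANCG, 0.78 for PALB2, 0.65 for MUS81, 0.60 for BRCA1, 0.58 for RBBP8, 0.53 for SLX4 and -0.70 for ATM. For PD24 (limma) they were 1.82 for EXO1, 1.66 for RAD54L and 1.10 for RMI1. Levels in PD30 were low for EXO1, BARD1, RAD54L, RAD54B and FANCG, as given above, but not for FANCF. Leaving out single libraries cost some of the PD30 terms their call. The term of RAD54L was lost without DMSO replicate 2 or 3, Nutlin replicate 1 or 2, PD30 replicate 2 or 3 or N+PD30 replicate 1 or 2, and that of XRCC3 without DMSO replicate 1 or 2, Nutlin replicate 2, PD30 replicate 1 or 2 or any N+PD30 library. That of MUS81 was lost without DMSO replicate 1 or 2, Nutlin replicate 1 or 2, PD30 replicate 1 or 3 or N+PD30 replicate 2, and that of SLX4 without DMSO replicate 1 or 2, Nutlin replicate 1 or 2 or PD30 replicate 1. PALB2 lost it without DMSO replicate 3, Nutlin replicate 1, PD30 replicate 1 or 2 or N+PD30 replicate 2, and RBBP8 without DMSO replicate 3, Nutlin replicate 2 or N+PD30 replicate 2. The terms of EXO1, BARD1, FANCF, RAD54B, FANCE and FANCG kept it in each of the 12 fits that left out 1 library.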

How the results depend on the processing

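No fold change of a gene that was called in either fit changed sign. Over the 39 genes, 11 comparisons and all alternatives, 5291 of 5577 values kept their side of the threshold, 218 lost the call and 68 gained it. Counts of called genes moved by more than 1.5 times in these cases. With the replicate block, 12 genes were higher in PD24 against PD30, 13 lower in N+PD30 against PD30, 1 higher in N+PD24 against Nutlin and 4 higher in N+PD24 against PD24. One fit over all 5 groups deposited as counts gave 0 higher in PD30 against DMSO and 13 lower in N+PD30 against PD30. Leaving out 1 library gave 0 to 1 higher in PD30 against DMSO, 1 to 2 higher in N+PD30 against Nutlin, 1 to 2 lower and 4 to 7 higher in PD24 against PD30, and 0 to 6 lower in N+PD30 against PD30. It gave 5 to 8 higher in N+PD24 against N+PD30, 9 to 13 lower and 1 to 2 higher in N+PD24 against PD24, 0 to 1 negative and 7 to 14 positive interaction terms for PD30, and 2 to 5 positive terms for PD24. The cause was not tested, beyond the smaller number of libraries. Where numbers did not pair the libraries, the block left the counts within 1.5 times, the PD24 interaction having 4 positive terms under it. A single cell line, 3 libraries a group and counts as low as 8, and lower still in DMC1, limit the precision of the lowest levels.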
